A study of Mus musculus with 12 samples.

Results

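The genes described here are the 10 core genes of MHC class I antigen presentation and of the immunoproteasome, taken by name from a table of 21965 genes counted in mouse gingiva: H2-K1, H2-D1, B2m, Tap1, Tap2, Tapbp, Psmb8, Psmb9, Psmb10 and Nlrc5. All 10 were found in the table, and all 10 were among the 15046 genes kept by a filter on low counts. All 10 were highest in a single library, and no member passed the test in any comparison under edgeR's quasi-likelihood fit.

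Class I molecules display peptides from inside the cell to CD8 T cells. The peptides are cut by the proteasome, pumped into the endoplasmic reticulum by a transporter and fitted onto a heavy chain paired with beta-2 microglobulin. Interferon-gamma raises the whole pathway in many cell types, including epithelial cells, and exchanges the catalytic subunits of the standard proteasome for those of the immunoproteasome. Nlrc5 is a transactivator that acts at class I gene promoters together with the RFX, CREB and NF-Y factors.

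The groups were WT naive, WT ligated, CybbKO naive and CybbKO ligated, with 3 libraries each and 12 in all. WT mice were C57BL/6 by the labels, and CybbKO mice carry a germline Cybb-/- genotype, which disrupts a Nox2 subunit in every cell type. Ligated tissue came from around a maxillary molar tied with silk for 8 days, and naive tissue from mice without a ligature. The labels give ages under 12 weeks, and the design text gives 3 age- and sex-matched mice per group. As nothing ties a library to 1 mouse, p-values measure the spread between these libraries.

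Total counts per library ran from 27958819 to 42613423, so that at the level of these genes the spread between libraries set the precision. The common biological coefficient of variation was 0.2405. It is shared by all tested genes and is not the spread of the members. The disrupted gene did not check the labels: Cybb stood at 4.19 to 15.2 CPM, the count scaled to the effective size of the library, in the 6 WT libraries and at 41.6 to 63.7 CPM in the 6 libraries labelled CybbKO. Group names below are therefore those of the labels. The 8 oral epithelium markers, mostly keratins, summed to 59099 to 123224 CPM. CybbKO ligated replicate 2 stood apart in the pathway described here, and it also differed from the other ligated CybbKO libraries in tissue markers. It held 3631 CPM of 5 fibroblast markers against 9642 and 8626 CPM, and 106437 CPM of epithelial markers against 66767 and 59099 CPM. WT naive replicate 3 held 29366 CPM of 5 salivary and mucous gland markers, against 57.1 and 2778 CPM in the other WT naive libraries.

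On GRCm38, 7 of the 10 genes lie on chromosome 17 in the H2 region, with Psmb9 (34181987-34187764, minus strand), Tap1 (34187553-34197225, plus strand), Psmb8 (34197721-34201454, plus strand) and Tap2 (34203527-34216321, plus strand) side by side. Psmb9 and Tap1 are divergent and overlap by 212 bases in GENCODE M21. Tapbp (33915899-33929292) and H2-D1 (35262730-35267499) lie further out on the plus strand and H2-K1 (33996017-34000347) on the minus strand. B2m lies on chromosome 2 (122147686-122153083, plus strand), and Nlrc5 (94434356-94527272, plus strand) and Psmb10 (105935735-105938444, minus strand) on chromosome 8. Reads from near-identical genes could be split between them, and 3.1% of the 75-base runs in H2-K1 transcripts and 5.4% in H2-D1 transcripts also occur in transcripts of other genes, mostly other class I chains. The share was 1.1% for Tapbp and 0% for the other 7 members.

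Promoter windows of RefSeq on GRCm38.p6, from 250 bases before to 50 after the start, were at hand for 8 of the 10 members, not for Tap2 and Nlrc5. They are shown because the members moved together across the libraries, and because Nlrc5 acts with factors that read the X and Y boxes of class I promoters. TGACG, the first letters of an X2 box, was found on either strand in 5 of the 8 windows and in 20.8% of 32851 promoter windows. ATTGG, the Y box, was found in 6 of the 8 windows and in 37.4% of all. The windows of Psmb9 and Tap1 overlap by 275 bases, and both counts include the matches that these share under each gene. In the heavy chain genes H2-K1 and H2-D1 both motifs stood on the same strand with their first bases 25 bases apart, which was noticed after the sequences had been read. That arrangement was present in 19 of all 32851 windows, 0.0578%. The stretches below run 5′ to 3′ on the strand of the gene, with the 2 motifs in capitals, and cover chr17:34000348-34000403 on the minus strand for H2-K1 and chr17:35262978-35263033 on the plus strand for H2-D1.
H2-K1: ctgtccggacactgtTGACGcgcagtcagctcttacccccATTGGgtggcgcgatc
H2-D1: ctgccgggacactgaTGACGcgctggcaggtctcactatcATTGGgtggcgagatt
H2-K1 and H2-D1, which are related genes, share 44 of these 56 bases. The capitals start at -41 in H2-K1 and -101 in H2-D1, counted from the RefSeq start as 0.

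In RefSeq 225 bases lie between the starts of Psmb9 and Tap1, so that a single stretch precedes both genes. It is shown in the direction of Tap1 (chr17:34187331-34187555, plus strand), with CCAAT, the Y box on the other strand, and TGACG in capitals.
Psmb9 and Tap1: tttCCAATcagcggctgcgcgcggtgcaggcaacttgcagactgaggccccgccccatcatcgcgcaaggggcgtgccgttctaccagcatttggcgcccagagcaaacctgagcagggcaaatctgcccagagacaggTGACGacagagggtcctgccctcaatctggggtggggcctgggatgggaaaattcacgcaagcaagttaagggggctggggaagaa
A pair of interferon-related motifs was searched as well, on both strands. GAAANNGAA, a core of the interferon-stimulated response element, was found in 1 of the 8 windows and in 8.56% of all windows. Other spellings of that element were not searched, so a window without this one may still hold it. TTCNNNGAA, the gamma-activated site, was found in that of Psmb8 and in 8.3% of all. The match of Psmb8 stands in capitals, at chr17:34198083-34198121 on the plus strand.
Psmb8: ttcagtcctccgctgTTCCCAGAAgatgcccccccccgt
A match describes the letters in these windows and is no measured binding site.

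Levels between genes were compared in WT naive tissue as CPM per kilobase of exons, over 3 libraries. B2m, the light chain shared by all class I molecules, came first at 269 ± 174 (SD, n = 3) CPM per kilobase. H2-D1 followed at 101 ± 9.78 and H2-K1 at 68.9 ± 18, the heavy chains that present peptides in this strain. Tapbp, or tapasin, which holds the heavy chain at the transporter, stood at 20.8 ± 3.47 CPM per kilobase. None of these 4 overlapped its neighbour in the order. Tap1 at 3.56 ± 1.15, Psmb10 at 3.34 ± 1.22, Tap2 at 3.00 ± 1.03, Psmb8 at 1.88 ± 0.444, Nlrc5 at 1.40 ± 1.27 and Psmb9 at 1.11 ± 0.609 CPM per kilobase each overlapped the next, so that neighbours in this order did not differ beyond their spread. The standard catalytic subunits were far above the immunoproteasome ones, with Psmb5, Psmb6 and Psmb7 at 43, 54.9 and 40.1 CPM per kilobase.

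The question put to each gene was whether its level changed with the ligature in either genotype, and whether it differed between genotypes in naive or in ligated tissue. Values of single genes below are CPM, in the order of replicates 1, 2 and 3.

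The class I chains were highest in CybbKO ligated replicate 2, followed by CybbKO naive replicate 3. H2-K1 was at 243, 143 and 222 CPM in WT naive, 181, 208 and 257 in WT ligated, 294, 221 and 433 in CybbKO naive, and 263, 1144 and 313 in CybbKO ligated tissue. The second ligated CybbKO library was 2.64-fold above the next library, CybbKO naive replicate 3, and the other 2 were still above the 3 ligated WT libraries. The log2 fold change of CybbKO over WT in ligated tissue was 1.41 ± 0.48 (SE), with an edgeR adjusted p of 1.00, and 0.42 without that library.

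H2-D1 was at 273, 232 and 278 CPM in WT naive, 246, 253 and 291 in WT ligated, 379, 285 and 485 in CybbKO naive, and 328, 987 and 366 in CybbKO ligated tissue. It was the 1 member whose groups did not overlap in naive tissue either, with all 3 CybbKO libraries above all 3 WT libraries. Its log2 fold change between genotypes was 1.09 ± 0.35 in ligated and 0.55 ± 0.35 in naive tissue, both with an edgeR adjusted p of 1.00, and 0.40 in ligated tissue without CybbKO ligated replicate 2.

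B2m was at 404, 143 and 147 CPM in WT naive, 180, 239 and 323 in WT ligated, 298, 314 and 527 in CybbKO naive, and 374, 1297 and 469 in CybbKO ligated tissue. Within WT naive tissue the first library was more than the sum of the others, so that the genotypes overlapped in naive tissue and not in ligated tissue. The log2 fold change of CybbKO over WT in ligated tissue was 1.53 ± 0.51 (edgeR adjusted p 1.00), and 0.77 without CybbKO ligated replicate 2.

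**Figure D1:**
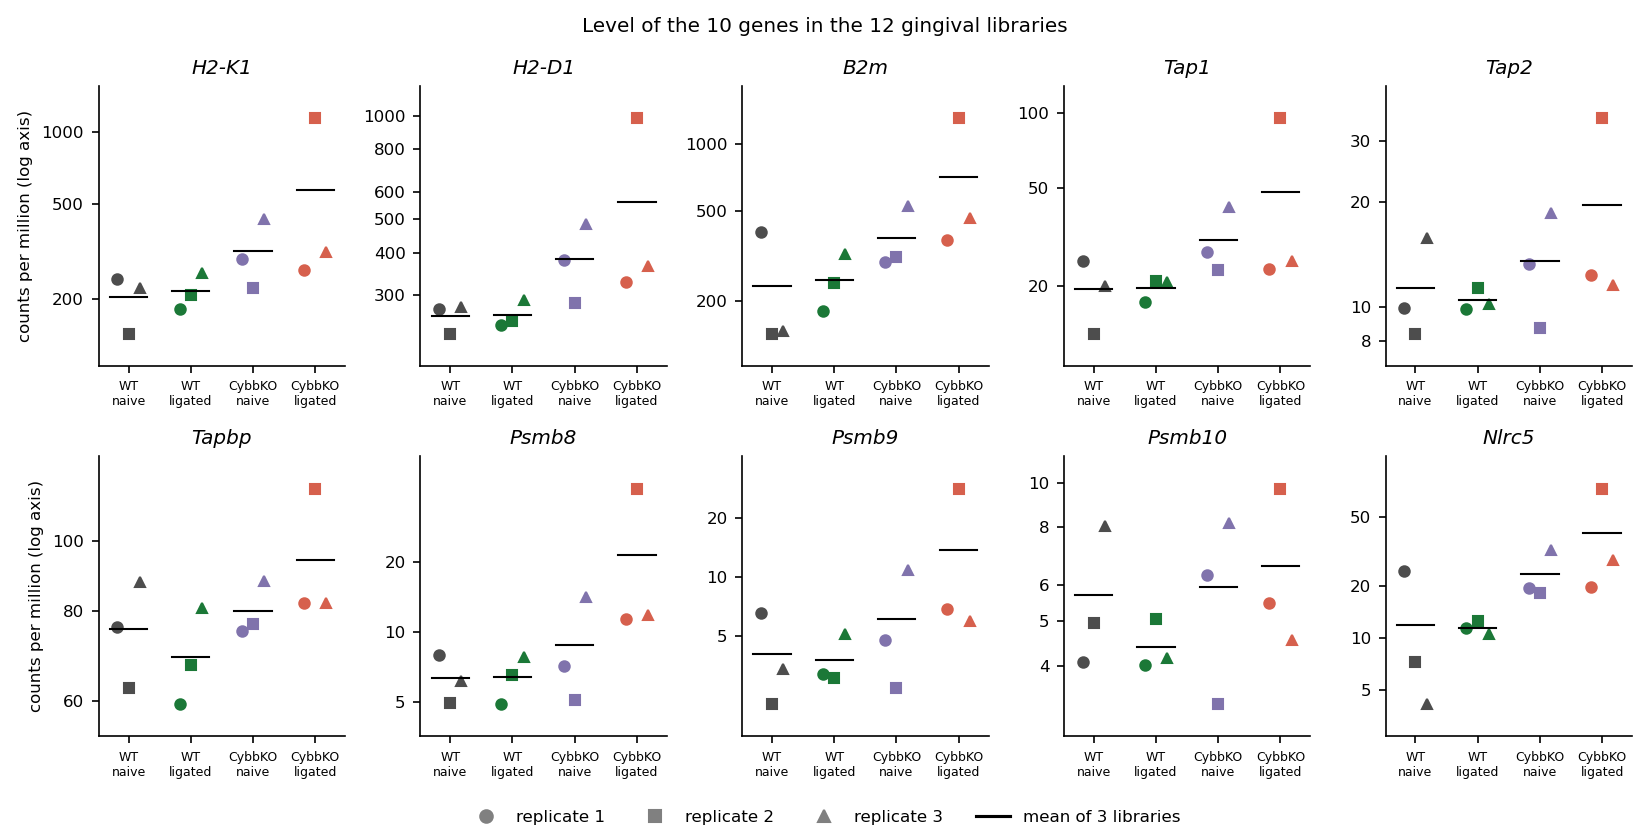
CPM of the 10 genes on log axes in each of the 12 libraries, by group, with the replicate number as the marker and the mean of 3 libraries as a bar. In every panel the highest point is CybbKO ligated replicate 2, and the second highest is CybbKO naive replicate 3.

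The genes of peptide loading were lower in level than the class I chains. Tap1, a chain of the peptide transporter, was at 25.4, 12.9 and 20.1 CPM in WT naive, 17.3, 20.96 and 20.8 in WT ligated, 27.6, 23.4 and 41.7 in CybbKO naive, and 23.5, 95.5 and 25.3 in CybbKO ligated tissue. Tap2, the other chain, was at 9.90, 8.38 and 15.7 CPM in WT naive, 9.83, 11.3 and 10.2 in WT ligated, 13.3, 8.68 and 18.6 in CybbKO naive, and 12.4, 34.8 and 11.6 in CybbKO ligated tissue. In both, 1 ligated CybbKO library was far above the rest, and the other 2 were above the highest ligated WT library by less. The log2 fold change of CybbKO over WT in ligated tissue was 1.29 ± 0.48 for Tap1 and 0.91 ± 0.42 for Tap2, and 0.31 and 0.20 without CybbKO ligated replicate 2.

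Tapbp was at 75.9, 62.6 and 87.7 CPM in WT naive, 59.4, 67.3 and 80.7 in WT ligated, 75.0, 76.7 and 88.1 in CybbKO naive, and 82.1, 118 and 82.1 in CybbKO ligated tissue. It varied least of the 10 genes, by 1.99-fold from the lowest to the highest library. Its ligated groups were barely apart, with 80.7 CPM in the highest WT and 82.1 CPM in the lowest CybbKO library, and its log2 fold change was 0.45 ± 0.18 (edgeR adjusted p 1.00), and 0.25 without CybbKO ligated replicate 2.

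Psmb8, Psmb9 and Psmb10 encode the catalytic subunits of the immunoproteasome. Psmb8 was at 7.95, 4.97 and 6.16 CPM in WT naive, 4.90, 6.57 and 7.78 in WT ligated, 7.13, 5.10 and 14.1 in CybbKO naive, and 11.4, 41.4 and 11.8 in CybbKO ligated tissue. All 3 ligated CybbKO libraries were above the 3 ligated WT libraries, and the other 2 remained so when the second was set aside. The log2 fold change between genotypes in ligated tissue was 1.74 ± 0.51 with an edgeR adjusted p of 1.00, and 0.85 with an unadjusted p of 0.0429 without CybbKO ligated replicate 2.

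Psmb9 was at 6.55, 2.25 and 3.39 CPM in WT naive, 3.19, 3.04 and 5.11 in WT ligated, 4.79, 2.72 and 10.8 in CybbKO naive, and 6.89, 28.1 and 5.93 in CybbKO ligated tissue. Of the 10 genes it had the widest gap between CybbKO ligated replicate 2 and the mean of the other 2 ligated CybbKO libraries, 4.39-fold. Psmb10 was at 4.08, 4.97 and 8.06 CPM in WT naive, 4.01, 5.05 and 4.15 in WT ligated, 6.29, 3.30 and 8.17 in CybbKO naive, and 5.48, 9.71 and 4.54 in CybbKO ligated tissue. Psmb10 was the 1 member whose ligated groups overlapped, with a log2 fold change of 0.58 ± 0.38, against 1.85 ± 0.66 for Psmb9. Without CybbKO ligated replicate 2 these were 0.19 and 0.76.

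Nlrc5, the transactivator, was at 24.2, 7.31 and 4.16 CPM in WT naive, 11.4, 12.5 and 10.5 in WT ligated, 19.4, 18.2 and 32.2 in CybbKO naive, and 19.7, 72.8 and 28.3 in CybbKO ligated tissue. It had the widest range of the 10 genes, 17.5-fold. All 3 ligated CybbKO libraries were above the ligated WT libraries, with a log2 fold change of 1.81 ± 0.60 (edgeR adjusted p 1.00), and 1.07 without CybbKO ligated replicate 2.

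Between genotypes in ligated tissue the 10 members thus had 10 positive log2 fold changes, from 0.45 to 1.85 with a median of 1.35, where the median over all tested genes was 0.0131. None was called by edgeR at an adjusted p under 0.05, beside 0.00665% of all genes, which was 1 gene, Cybb. At an unadjusted p under 0.05 edgeR had 8 of the 10, beside 3.34% of all genes, and DESeq2 9, beside 3.19%, of which DESeq2 also called 0. Libraries did not overlap, with CybbKO higher, for 9 of 10 members, beside 5.0% of all genes. Each library was left out in turn, and CybbKO ligated replicate 2 is singled out here after the data were seen. Without it, 9 of 10 still did not overlap, beside 17% of all genes. The median log2 fold change was then 0.41, and 1 member, Psmb8, had an unadjusted edgeR p under 0.05, beside 6.30% of all genes.

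Leukocyte markers were also higher in this comparison, and their part in it was not tested. Summed levels of 5 leukocyte markers, such as Ptprc, which encodes CD45, ran from 96.0 to 183 CPM in ligated WT libraries. In ligated CybbKO libraries they ran from 154 to 299 CPM, with 0 of the 5 markers at 0 counts. Their median log2 fold change was 0.87, with 5 of 5 at an unadjusted edgeR p under 0.05, beside 3.34% of all genes. EdgeR called 0 of them between genotypes. The 6 neutrophil markers summed to 1339 to 3756 CPM and 2466 to 11628 CPM, with a median log2 fold change of 1.31, 5 of 6 at an unadjusted edgeR p under 0.05 and 0 called, and 1 of the 6 at 0 in some library. CybbKO ligated replicate 2 had the lowest sum of the ligated CybbKO libraries. The 9 T and NK cell markers summed to 8.56 to 14.4 CPM and 15.6 to 17.7 CPM, with 3 of the 9 at 0 in some library. In these bulk samples, fewer cells of a type and less RNA per cell cannot be told apart. Library by library the order differed between markers. Ptprc was at 66.2, 30.7 and 83.3 CPM in the 3 ligated CybbKO libraries. The library highest in the 10 members was thus the lowest of these in Ptprc. The T and NK cell markers summed to 15.6, 16.2 and 17.7 CPM in the same order of libraries. In log2 CPM minus the mean of the gene over 12 libraries, the highest of them reached 1.08, 1.80 and 1.37. The highest neutrophil marker reached 2.22, 3.20 and 3.04.

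**Figure D2:**
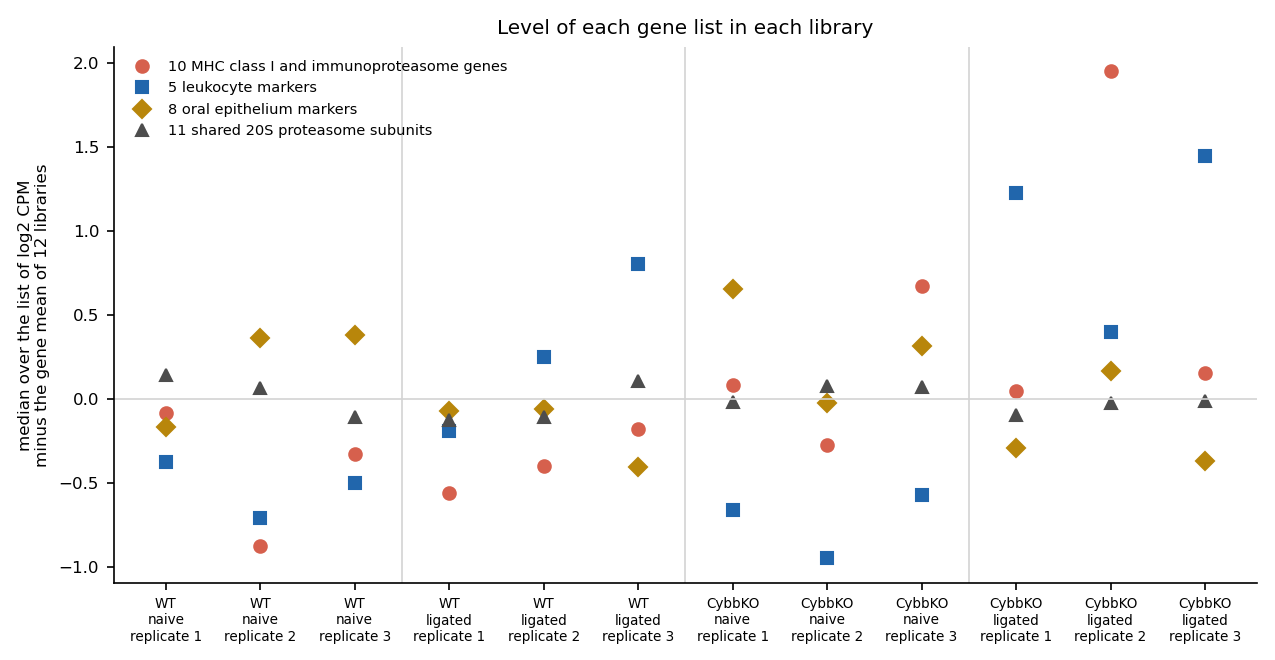
Median over each gene list of log2 CPM minus the mean of the gene over 12 libraries, for the 10 genes, 5 leukocyte markers, 8 oral epithelium markers and 11 proteasome subunits shared by both forms of the 20S core. The 10 genes reach 1.95 in CybbKO ligated replicate 2, where the leukocyte markers are at 0.40, and the shared subunits stay between -0.12 and 0.14.

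In naive tissue the members had 10 positive log2 fold changes of CybbKO over WT, from 0.06 for Psmb10 to 0.96 for Nlrc5, with a median of 0.57 beside 0.0023 over all genes. EdgeR called 0 of them, beside 0.00665% of all genes, had 0 at an unadjusted p under 0.05, beside 2.03%, and DESeq2 had 0 as well. Without CybbKO ligated replicate 2, which is not among the libraries compared here but shares their fit, 3 of the 10, H2-D1, Tap1 and H2-K1, had an unadjusted edgeR p under 0.05, beside 3.10% of all genes, and 0 were called. Libraries did not overlap for 1 of 10, H2-D1, beside 2.08% of all genes. CybbKO naive replicate 3 was the highest naive library for 10 of 10 members, and without it the median was 0.18. The leukocyte markers summed to 64.9 to 83.1 CPM in WT and to 55.2 to 76.2 CPM in CybbKO naive libraries. The median log2 fold change of CybbKO over WT in naive tissue was 0.66 for the 5 skeletal muscle markers and 0.65 for the 4 tested B and plasma cell markers, all of them positive, and 0.50 for the 7 tested T and NK cell markers, of which 5 were positive. It was -0.69 for the 5 fibroblast and -1.75 for the 5 gland markers, all of them negative. For the 6 neutrophil markers it was 0.54, with 4 of them positive. It was -0.25 for the 6 macrophage and dendritic cell markers, all of them negative, and -0.60 for the 5 bone cell markers, 4 of them negative. None of these markers was called, 1, of T and NK cells, had an unadjusted edgeR p under 0.05, and their part in the result was not tested.

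With the ligature in WT tissue the members went either way. Of the 10, 5 had positive and 5 negative log2 fold changes, from -0.37 for Psmb10 to 0.10 for B2m, with a median of -0.02 beside -0.026 over all genes, and of -0.23 without WT naive replicate 2 or 0.22 without WT naive replicate 1. EdgeR called 0, beside 3.20% of all genes, had 0 at an unadjusted p under 0.05, beside 19.9%, and DESeq2 had 0 by either count. The 95% intervals reached from -0.9995 to 1.19 for B2m and from -0.51 to 0.26 for Tapbp. Over the same comparison the leukocyte markers summed to 64.9 to 83.1 CPM in naive and 96.0 to 183 CPM in ligated WT libraries. Of these 5 markers edgeR called 0 and had 4 at an unadjusted p under 0.05, beside the same 19.9% of all genes.

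In CybbKO tissue 10 of 10 members had positive log2 fold changes of ligated over naive, from 0.15 for Psmb10 to 1.29 for Psmb8, with a median of 0.71 beside -0.034 over all genes. EdgeR called 0 of 10, beside 13.0% of all genes, with adjusted p from 0.114 for Psmb8 to 0.826 for Psmb10, and had 1, Psmb8, at an unadjusted p under 0.05, beside 27.7% of all genes. DESeq2, the tool named in the methods, called Psmb8 alone, with a log2 fold change of 1.27 and an adjusted p of 0.0437, beside 15.4% of all genes. Libraries did not overlap, with ligated higher, for 0 of 10 members, beside 18.5% of all genes, since CybbKO naive replicate 3 was above CybbKO ligated replicates 1 and 3 in 10 of 10. Without CybbKO ligated replicate 2 the median was -0.05, with 5 members higher and 5 lower, from -0.34 for Tap1 to 0.40 for Psmb8.

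The same comparison called 5 of 5 leukocyte markers higher, beside the same 13.0%, with a log2 fold change of 2.04 ± 0.35 and an edgeR adjusted p of 0.00441 for Ptprc. Called higher too were 6 of 6 neutrophil, 6 of 6 macrophage and dendritic cell, 5 of 5 endothelium and 4 of 5 fibroblast markers. Called lower were 2 of 8 oral epithelium and 2 of 4 tested B and plasma cell markers. The part of tissue composition in the result was not tested. The difference between the genotypes in the ligature change was positive for 10 of 10 members, from 0.36 for Tapbp to 1.28 for Psmb8, with a median of 0.71 beside 0.0167 over all genes. EdgeR called 0, beside 0% of all genes, and had 0 at an unadjusted p under 0.05, beside 2.27%, as did DESeq2. Without CybbKO ligated replicate 2 its median was 0.08, with 6 members positive and 4 negative.

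**Figure D3:**
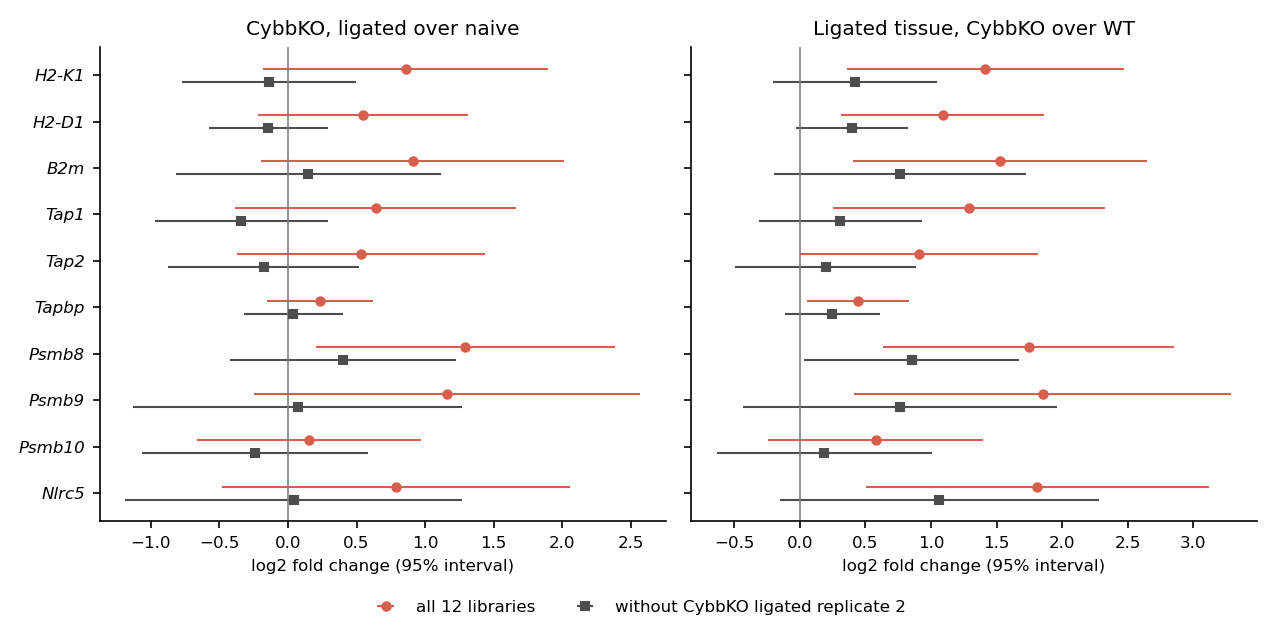
Log2 fold changes of the 10 genes with their 95% intervals from the edgeR fit, for ligated over naive CybbKO tissue and for CybbKO over WT ligated tissue, with all 12 libraries (circles) and without CybbKO ligated replicate 2 (squares). Without it the left medians fall from 0.71 to -0.05 and the right ones from 1.35 to 0.41.

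The pattern that the 10 genes shared was one of single libraries. CybbKO ligated replicate 2 was the highest of the 12 libraries for 10 of 10 members, by 1.19-fold (Psmb10) to 2.93-fold (Psmb8) over the next. CybbKO naive replicate 3 was second for 10 of 10. The lowest library was WT naive replicate 2 for 6 members. From the lowest to the highest library the members spanned 1.99-fold to 17.5-fold, with a median of 7.71-fold. Without CybbKO ligated replicate 2 they spanned 1.48-fold (Tapbp) to 7.76-fold (Nlrc5). Over all 12 libraries the 11 shared subunits of the 20S core spanned only 1.18-fold to 1.48-fold. The 3 standard catalytic subunits spanned 1.21-fold to 1.66-fold, and the 17 subunits of the 19S cap 1.20-fold to 2.04-fold. The most abundant shared subunits, Psma6, Psmb1 and Psma2, were at 161 to 227, 149 to 176 and 143 to 172 CPM, and those of the cap, Psmd2, Psmd8 and Psmc5, at 268 to 321, 194 to 256 and 177 to 259 CPM.

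The libraries high in the members were also high in 5 skeletal muscle markers, which summed to 1396 CPM in CybbKO ligated replicate 2 and 1625 CPM in CybbKO naive replicate 3. WT libraries with 1064 and 1016 CPM of these markers, WT ligated replicate 1 and WT naive replicate 2, were the lowest of their groups in the summed level of the members, while WT ligated replicate 3, with 964 CPM, was the highest of its group, and the part of muscle in the result was not tested.

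Immunoproteasome and standard subunits were compared as the ratio of their counts within each library, not scaled to gene length, so that 100% does not stand for equal levels. Psmb8 to Psmb5, the chymotrypsin-like pair, was at 26.4, 11.8 and 14.1% in WT naive, 12.4, 19 and 28.6% in WT ligated, 15.8, 17.6 and 34.4% in CybbKO naive, and 36.4, 107 and 40.8% in CybbKO ligated libraries. All 3 ligated CybbKO libraries were above all 9 others, which held for no single member by its CPM. The mean log2 ratio was higher by 1.52 in ligated CybbKO than in ligated WT tissue and by 1.35 than in naive CybbKO tissue, each with an exact two-sided permutation p of 0.1, the smallest that 3 against 3 allow, and 0.4 after adjustment over 12 comparisons. Without CybbKO ligated replicate 2 these differences were 1.03 and 0.86.

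Psmb9 to Psmb6, the caspase-like standard subunit, was at 3.58, 3.46 and 6.10% in WT ligated libraries. In CybbKO ligated libraries the ratio was at 8.43, 26.4 and 7.46%, again without overlap. The difference in mean log2 ratio was 1.49 (exact permutation p 0.1, adjusted 0.4), and 0.91 without CybbKO ligated replicate 2. In WT naive libraries the ratio was at 8.06, 2.07 and 2.86%, and in CybbKO naive ones at 4.21, 3.31 and 9.82%. Naive and ligated CybbKO tissue thus overlapped. Psmb10 to Psmb7, the trypsin-like pair, was at 3.14, 4.13 and 2.91% in WT ligated and 4.37, 7.54 and 3.42% in CybbKO ligated libraries, and overlapped in all 4 comparisons, with exact permutation p from 0.2 to 1.

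**Figure D4:**
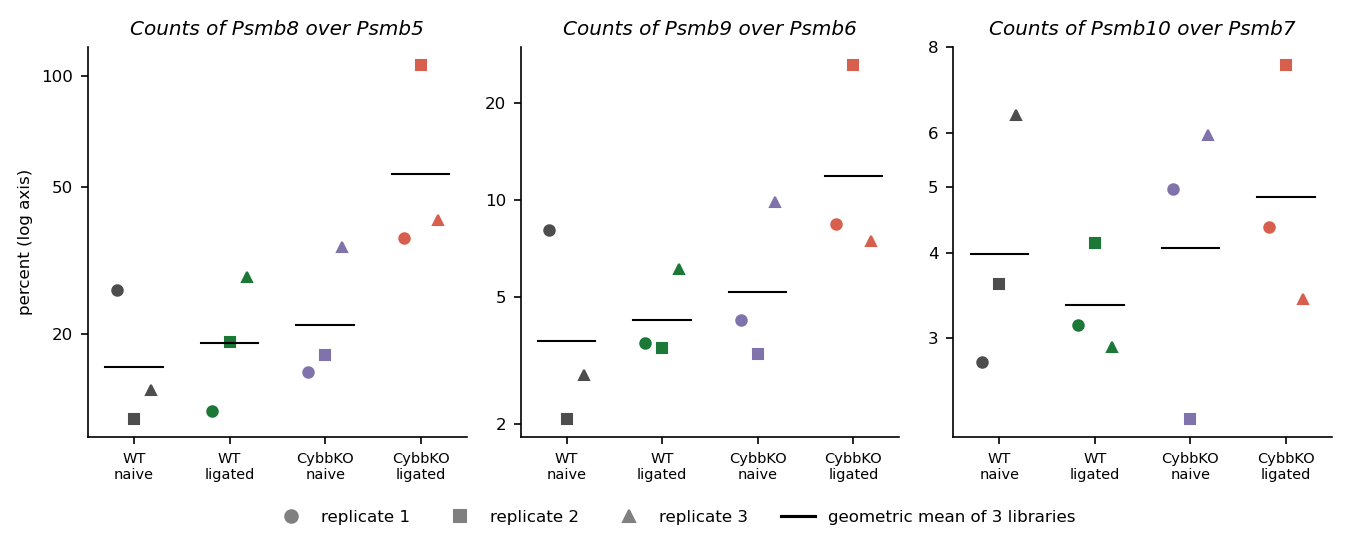
Counts of each immunoproteasome subunit as a percent of its standard counterpart in each library, on log axes, with the geometric mean of 3 libraries as a bar. For Psmb8 over Psmb5 the CybbKO ligated libraries lie at 36.4, 107 and 40.8%, above the 34.4% of CybbKO naive replicate 3, the highest of the other 9.

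The log2 fold changes of Psmb5, Psmb6 and Psmb7 between genotypes in ligated tissue lay between -0.04 and 0.04, and those of the 11 shared subunits between -0.05 and 0.05, with 0 called in any comparison. Of the PA28 activator, which opens the proteasome and is also raised by interferon-gamma, Psme1 was at 71.0 CPM and Psme2 at 95.7 CPM in CybbKO ligated replicate 2, against 36.1 to 48.3 and 58.2 to 78.6 CPM in the other 11 libraries. Of 7 other activators and assembly factors, 1 was called in CybbKO tissue, lower under ligature, beside 13.0% of all genes called in either direction: Psmg2, a chaperone of core assembly, at a log2 fold change of -0.47 (edgeR adjusted p 0.0149). It was named after its values were seen, and lost the call without CybbKO ligated replicate 1 or 3 or CybbKO naive replicate 3 (adjusted p 0.0546 to 0.0633). The most abundant of the 7, Psme4, Pomp and Psme3, were at 169 to 269, 148 to 174 and 117 to 191 CPM.

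The remaining partners of peptide loading, Calr, Canx, Pdia3, Uggt1, Erap1 and Tapbpl, which fold, check and trim, gave 0 calls in any comparison, with log2 fold changes from 0.01 to 0.44 between genotypes in ligated tissue. Tapbpl, a relative of tapasin, had the highest of these, with 14.7 CPM in CybbKO ligated replicate 2 and 8.16 to 12.8 CPM elsewhere. The chaperones Calr, Pdia3 and Canx were at 623 to 1091, 532 to 974 and 340 to 603 CPM over the 12 libraries, Uggt1, which rechecks folding, at 67.9 to 91.0 CPM and Erap1, a trimming peptidase, at 40.8 to 64.2 CPM.

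Of the other class I and class I-like chains, 18 were in the table and 15 were tested. The most abundant, H2-T23 and H2-T22, were at 80.6 and 104 CPM in CybbKO ligated replicate 2 and at 33.0 to 52.5 and 29.5 to 55.5 CPM in the other libraries. Mr1, which presents vitamin metabolites, was at 23.8 to 31.1 CPM in all 12. H2-Q4, H2-Q6 and H2-Q7, named after their values were seen, followed the members: H2-Q4 was at 10.6, 14 and 15.8 CPM in ligated WT and 20.5, 113 and 22.4 CPM in ligated CybbKO libraries. H2-Q6 was at 2.61, 3.38 and 4.96 CPM and 7.26, 91.7 and 11 CPM, and H2-Q7 at 2.17, 2.25 and 3.68 CPM and 5.59, 57.5 and 8.15 CPM. Of the 75-base runs in their transcripts 18.5% for H2-T22, 17.9% for H2-Q6, 17% for H2-Q7, 7.02% for H2-Q4 and 5.91% for H2-T23 are shared with other genes, so the split of reads between these is uncertain.

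In CybbKO tissue the ligature called 4 of the 15 tested, beside 13.0% of all genes, each named after its values were seen. Cd1d1, which presents lipids, rose by a log2 fold change of 1.17 (edgeR adjusted p 0.0245), Hfe, an iron regulator, by 0.72 (0.0330) and H2-Q10, a secreted chain, by 2.06 (0.0388), while H2-M5 fell by 2.13 (0.0226). Unlike the members, Cd1d1 was even across the ligated CybbKO libraries, at 7.62, 7.09 and 8.06 CPM, against 3.11 to 3.63 CPM in naive ones. H2-Q10 was at 10.7, 2.65 and 11.2 CPM, lowest in the library where the members were highest. Cd1d1 lost its call without CybbKO ligated replicate 1 or 3 or any CybbKO naive library (adjusted p 0.0637 to 0.0806), and Hfe without CybbKO ligated replicate 1 or 2 or any CybbKO naive library (0.0605 to 0.130). H2-Q10 lost it without CybbKO ligated replicate 1 or 3, WT naive replicate 2 or any CybbKO naive library (0.0550 to 0.139), and H2-M5 without CybbKO ligated replicate 1 or 3 or CybbKO naive replicate 2 or 3 (0.0630 to 0.0868).

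Of 9 factors that bind class I and class II promoters, 1 was called for the ligature in CybbKO tissue, beside 13.0% of all genes: Ciita, the class II counterpart of Nlrc5, with a log2 fold change of 1.06 ± 0.22 (edgeR adjusted p 0.00905). It was at 7.15, 7.44 and 7.14 CPM in the ligated and 4.13, 2.5 and 3.81 CPM in the naive CybbKO libraries. Ciita was thus even where Nlrc5, at 19.7, 72.8 and 28.3 CPM, was not. Rfx5, which binds the X box, was at 16.8 to 33.6 CPM in all 12 libraries and was not called. The most abundant, Creb1, Nfya and Atf1, were at 52.3 to 86.6, 38.2 to 55.1 and 34.5 to 48.4 CPM.

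Upstream of the pathway, Ifng, the gene for interferon-gamma, was at 0 to 0.244 CPM and did not pass the filter. Of the 10 tested genes of its signalling, 2 were called higher under ligature in CybbKO tissue, beside 13.0% of all genes called in either direction, Irf1 at 1.08 ± 0.25 (edgeR adjusted p 0.0182) and Irf8 at 1.502 ± 0.31 (0.00969), the latter named after its values were seen. Irf1 lost its call without CybbKO naive replicate 1 or 2 (adjusted p 0.0658 to 0.0710). Jak1, Ifngr1 and Jak2, the most abundant of the list, were at 164 to 261, 57.6 to 117 and 46.3 to 94.8 CPM. Irf1, a factor that binds interferon-response elements, was at 19.97, 18.4 and 28 CPM in CybbKO naive and 34.3, 62.7 and 42.9 CPM in CybbKO ligated libraries. It was separate from ligated WT tissue too, at 20.1, 26.1 and 24.3 CPM, with a log2 fold change of 0.99 ± 0.25 that was not called (adjusted p 1.00).

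The genes outside these lists whose log2 CPM ran most like the mean standardised level of the 10 members were picked by Pearson's r over the 12 libraries, as a description. They were Gbp5 (r 0.907), Gbp4 (0.907), Cd74 (0.902), Irf7 (0.899) and Gm4841 (0.884). The points for each gene come from the same 12 libraries, which differ in tissue composition, and r fell to 0.891, 0.852, 0.738, 0.817 and 0.681 over the 11 libraries without CybbKO ligated replicate 2. Gbp4, a guanylate-binding protein, was at 17.7, 60.8 and 19.1 CPM in ligated and 10.1, 11.4 and 35.6 CPM in naive CybbKO libraries, and at 4.45 to 11.1 CPM in the 6 WT libraries. Gbp5 was at 6.97, 20.4 and 10.1 CPM and 3.61, 4.55 and 11.2 CPM, and at 1.52 to 4.32 CPM in the WT libraries. Both put the same libraries first and second as the members. Gm4841 was near the floor, at 0 to 0.548 CPM in 11 libraries and at 4.17 CPM in CybbKO ligated replicate 2. For Ptprc, the leukocyte marker, r was 0.221, and 0.234 without that library.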

How the data were processed

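The authors deposited raw counts of reads per gene, with no normalization, for 12 gingival RNA-seq libraries. Per the methods, stranded mRNA libraries (75-cycle kit) were aligned to GRCm38 (Ensembl 93) with STAR and counted by strand with featureCounts; the submitters' processing notes name HTSeq 0.10.0, FastQC 0.10.1 and mm10, so the counting tool is not settled. By-strand counting matters for the overlapping Psmb9 and Tap1. Groups came from the sample labels. Ensembl identifiers were named with GENCODE M21 (21939 of 21965 matched).

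Counts were fitted with edgeR 4.0.16 (quasi-likelihood F test, TMM, 1 mean per group, all 12 libraries) in R 4.3.3 with limma 3.58.1, after filterByExpr, which removed 6919 genes. P-values were adjusted by Benjamini-Hochberg over 15046 genes, with calls at an adjusted p under 0.05. CPM are TMM-scaled. The steps were tested on simulated data. Alternatives were DESeq2 1.42.0 (the tool of the methods, which do not say which libraries were fitted together), DESeq2 size factors, library size only, no filter, a floor of 10 counts for each library, robust dispersion, only the 6 libraries compared, a replicate block, and each library left out in turn. Ratios were compared by exact permutation tests; promoters and motifs were read with Python 3.11.15. A planned comparison of protein sequences was not run.

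The members, gene lists and tests were chosen with earlier results of these data known. Named genes are the members, all genes of the short lists (standard catalytic subunits, PA28, loading partners), the 3 most abundant of each other list, Irf1, Ifng, Rfx5, Ciita, Ptprc, Cybb and the 5 genes of most like pattern; others are marked as named after their values were seen. A gene of that rule and a promoter stretch are not reported here.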

Additional observations from a re-analysis of the deposited data

How the results depend on the processing

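No member was called by edgeR in any comparison under any alternative, each library left out in turn included; DESeq2 called 1, Psmb8, in CybbKO tissue under ligature. Under DESeq2 the genes called were 1372 (WT ligature), 15 (genotypes, ligated) and 2 (genotypes, naive), against 481, 1 and 1 in edgeR. The fit of only the 6 libraries compared called 0 genes between genotypes in ligated tissue. Replicate numbers did not pair the samples (r over 0.1 in 2 of 18 same-numbered pairs, median -0.1328), and with the replicate block 271 genes were called for the ligature in WT and 1573 in CybbKO tissue. With the block the WT ligature changes turned for Tap1 (-0.034), Psmb8 (-0.049) and Nlrc5 (0.021), and for Nlrc5 also with library size only (0.037). The causes were not tested. Leaving out each library in turn changed the sign of these log2 fold changes. For the WT ligature the range was -0.11 to 0.24 (H2-K1), -0.067 to 0.096 (H2-D1), -0.16 to 0.77 (B2m), -0.21 to 0.26 (Tap1), -0.29 to 0.19 (Tap2), -0.25 to 0.0087 (Tapbp), -0.15 to 0.21 (Psmb8), -0.40 to 0.42 (Psmb9), -0.46 to 0.99 (Nlrc5). For the CybbKO ligature the range was -0.14 to 1.20 (H2-K1), -0.14 to 0.82 (H2-D1), -0.34 to 0.97 (Tap1), -0.18 to 0.83 (Tap2), -0.24 to 0.45 (Psmb10). For the genotypes in naive tissue the range was -0.043 to 0.57 (Tap2), -0.034 to 0.21 (Tapbp), -0.056 to 0.74 (Psmb8), -0.12 to 1.12 (Psmb9), -0.25 to 0.39 (Psmb10). For the difference between ligature changes the range was -0.22 to 1.12 (H2-K1), -0.16 to 0.81 (H2-D1), -0.35 to 0.95 (Tap1), -0.059 to 0.95 (Tap2), -0.21 to 1.25 (Nlrc5). For the ratios it was -0.092 to 0.55 (Psmb8 to Psmb5, WT ligature), -0.18 to 0.80 (Psmb9 to Psmb6, WT ligature) and, for Psmb10 to Psmb7, -0.51 to 0.088 (WT ligature), -0.17 to 0.52 (CybbKO ligature) and -0.24 to 0.45 (genotypes, naive). Genes called ranged from 27 (without WT naive replicate 2) to 900 (without CybbKO ligated replicate 2) for the WT ligature, from 837 (without CybbKO ligated replicate 1) to 2949 (without CybbKO ligated replicate 2) for the CybbKO ligature, from 0 to 2 between genotypes in ligated tissue and from 0 to 1 for the difference between ligature changes. The members' medians ranged from -0.23 to 0.22 (WT ligature), -0.049 to 1.04 (CybbKO ligature), 0.41 to 1.69 (genotypes, ligated) and 0.076 to 1.03 (difference between ligature changes), the last 3 lowest without CybbKO ligated replicate 2.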
